A study of Sus scrofa with 8 samples.

Results

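The 10 genes described here are antiviral effectors of the interferon response: BST2, IFI6, RSAD2, CMPK2, IFI44, IFI44L, SAMD9, EPSTI1, XAF1 and TRIM25. They are 10 of the 35683 genes measured, and they were chosen because earlier results from the same nuclei had shown them higher after vector injection in many retinal cell classes. Their difference between AAV-injected and vehicle-injected retinas is therefore given as a description, with no test.

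Single-nucleus RNA sequencing had been run on 8 retinas of female Yucatan minipigs, with 4 lanes per retina. Each eye received an intravitreal injection of AAV2.7m8/CAG-GFP (an engineered AAV2 capsid carrying a green fluorescent protein driven by the ubiquitous CAG promoter) at 5e11 vg/eye, or vehicle. All animals, controls included, had received intravitreal Vitrase (hyaluronidase) before dosing and weekly methylprednisolone, a corticosteroid. At week 2 the retinas were the left and right eyes of 1 AAV animal (7221) and of 1 vehicle animal (7222), so the pair within each arm shares an animal and carries no spread between animals. At week 4 they were the left eyes of 2 AAV animals (7248 and 7249) and of 2 vehicle animals (7250 and 7251). The batch given for each library is its treatment and week, so batch and group cannot be told apart, and weeks differ in animals as well as in time.

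Of 388491 barcodes, 350537 passed the filter on mitochondrial reads and 307358 were assigned to a class by marker genes, from 31227 to 43643 per retina. The deposited barcodes of a retina held 121544835 to 173614051 UMIs (unique molecular identifiers, each counting 1 captured RNA molecule). Of the marker genes, 72 of the 85 used for assignment and 23 of the 28 held back for checking were highest in their own class. Among the Müller markers used for assignment, COL9A1 alone was highest in Müller nuclei. The others were higher in astrocytes or retinal pigment epithelium. Any pair of the 496 pairs of lanes shared 18 to 65 barcodes, at most 0.514% of the smaller lane. Levels below are in CPM, the UMIs of a gene per 1000000 UMIs of all nuclei of that class in that retina, and a fold is the ratio of the mean AAV level to the mean vehicle level. Gated microglia numbered 1003 and 701 in the AAV retinas of week 4 against 58 to 104 in the other 6 retinas, lymphocytes 1120 and 1032 against 3 to 20, and Müller nuclei 2198 and 802 against 4376 to 6149. Whether the nuclei gated as microglia in the AAV retinas of week 4 are resident or infiltrating was not tested.

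Type I and type III interferons act through paired receptors and the JAK kinases on a transcription factor complex that binds the interferon-stimulated response element (ISRE) in the promoters of many genes. Type II interferon acts on a different element, GAS. Among the products are effectors that block steps of a viral life cycle directly: entry, copying of the genome, translation or release. In the uninjured retina, which holds few immune cells, most of these genes are held low in neurons.

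The promoter windows are shown because members that were high together can be read beside the letters that precede their starts. RefSeq gene models on Sscrofa11.1 gave a window, from 250 bases before to 50 bases after the annotated start, for 9 of the 10 genes. SAMD9 (ENSSSCG00000027372) had no entry under that symbol. The ISRE was searched as TTTCNNTTTC and as its complement GAAANNGAAA, and capitals in the following lines mark the matches. All lines read 5′ to 3′ on the strand of the gene.
BST2: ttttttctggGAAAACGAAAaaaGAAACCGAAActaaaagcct
RSAD2: ctgttccaatTTTCATTTTCacgagagcaa
IFI44L: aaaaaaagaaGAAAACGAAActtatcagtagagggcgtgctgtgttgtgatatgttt
EPSTI1: caagtatcgaGAAATCGAAActcagctgtt

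The stretch of BST2 lies at chr2:60305095-60305137 on the plus strand, with its matches starting 201 and 188 bases before the gene. The RSAD2 stretch is chr3:128897920-128897949 on the minus strand, and its match starts 130 bases before the gene. The IFI44L stretch is chr6:134679193-134679249 on the minus strand, with a match starting 27 bases before the gene and another, not printed, 31 bases after the start. The EPSTI1 stretch is chr11:24116997-24117026 on the plus strand, and its match lies inside the transcript, 16 bases after the start. In all, 5 of the 9 windows held the letters, 4 of them shown here, against 699 of all 19556 protein-coding windows of the same length (3.57%). The windows of CMPK2, IFI44, XAF1 and TRIM25 held none. The GAS letters TTCNNNGAA, which read the same on both strands, stood in the window of BST2 alone, against 7.12% of all windows. A match describes letters and not a site in use.

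**Figure D1:**
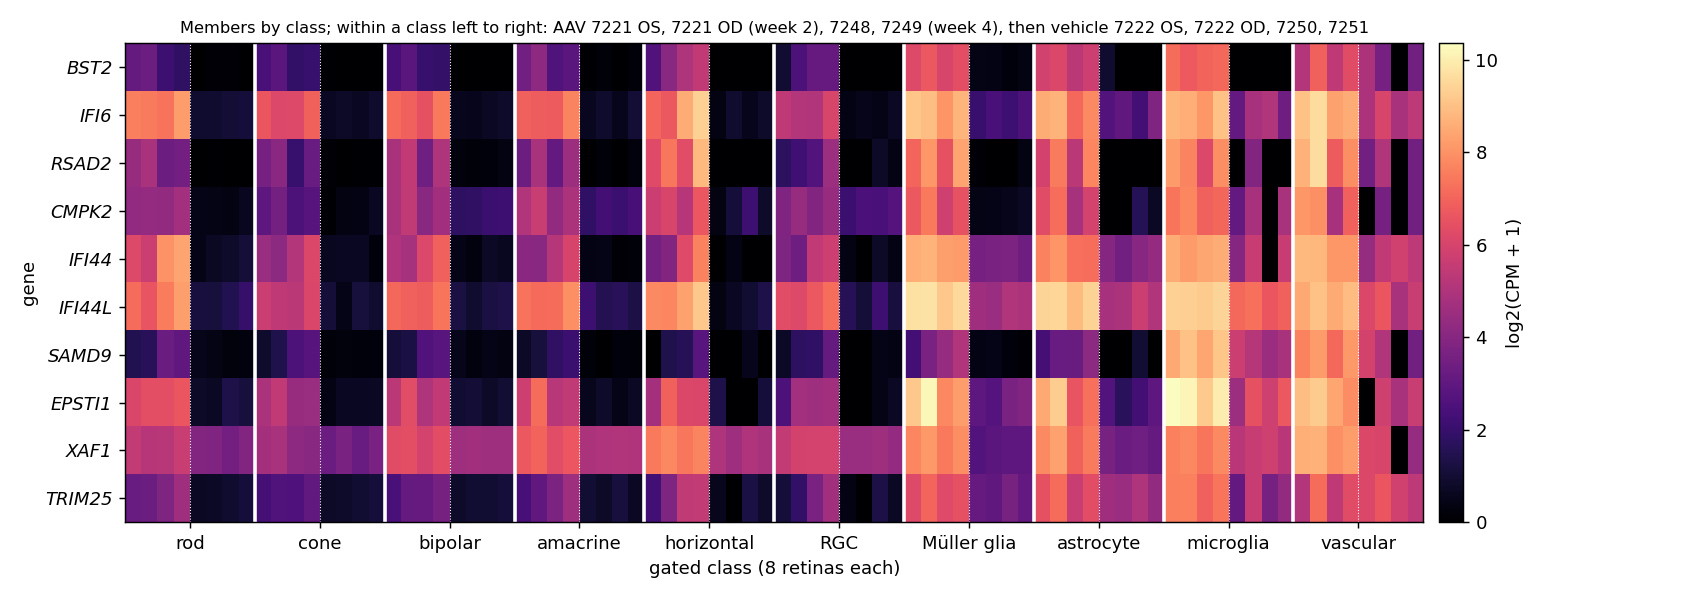
Level of each of the 10 genes (vertical axis) in 10 retinal classes (horizontal axis), as log2(CPM + 1) on a colour scale where brighter is higher, with 8 retinas per class, the 4 AAV retinas left of the dotted line and the 4 vehicle retinas right of it. AAV columns are brighter in nearly every class, XAF1 is the gene with most signal in vehicle neurons, and SAMD9 is bright in microglia and vascular nuclei and dark in neurons.

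The summed level of the 10 genes was higher in every AAV retina than in every vehicle retina of the same week, in all 10 classes measured at both weeks. By the mean of each week it was highest in microglia, the macrophages of neural tissue, at 4139 and 3951 CPM in the eyes of 7221 against 284.6 and 487.5 CPM in those of 7222, and at 2764 and 4049 CPM in 7248 and 7249 against 271.7 and 398.3 CPM in 7250 and 7251. In the right eye of 7221 vascular nuclei, at 4374 CPM, stood above microglia. In Müller glia, which span the retina and support its neurons, it was 2970 and 3949 CPM against 59.2 and 57.6 CPM at week 2, and 1847 and 2670 CPM against 78.5 and 74.0 CPM at week 4. In rods, the dim-light photoreceptors, it was 576.2 and 514.9 CPM against 18.2 and 17.9 CPM, then 774.5 and 1156 CPM against 16.9 and 21.7 CPM. No AAV value came near a vehicle value of the same class, although vehicle microglia themselves stood near or above the level of AAV cones.

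By mean level in AAV retinas, the order at week 2 was microglia (4045 ± 133 CPM, SD, n = 2 eyes), vascular (3787 ± 830), Müller (3459 ± 692), astrocytes (2520 ± 547), horizontal cells (824 ± 167), amacrine cells (576 ± 93.4), rods (546 ± 43.3), bipolar cells (511 ± 27.3), retinal pigment epithelium (335 ± 82.2), cones (247 ± 7.84) and retinal ganglion cells, or RGC (219 ± 23.4). The eyes overlapped between microglia and vascular, between vascular and Müller, between amacrine cells and rods and between rods and bipolar cells. Compared within each eye, vascular nuclei stood above Müller glia in both (3201 against 2970 CPM, on 24 vascular nuclei, and 4374 against 3949 CPM). The other overlapping pairs changed order between the eyes, so that those neighbours cannot be ordered. At week 4 the order was microglia (3406 ± 909 CPM, SD, n = 2 animals), Müller (2259 ± 581), vascular (2181 ± 389), horizontal cells (1789 ± 837), astrocytes (1479 ± 470), rods (965 ± 270.0), amacrine cells (597 ± 211), bipolar cells (532 ± 179), RGC (371 ± 93.2) and cones (265 ± 84.1). Only microglia against Müller, and rods against amacrine cells, were neighbours whose animals did not overlap. Compared within each animal, all neighbours kept this order except Müller glia and vascular nuclei, which changed places in 7248 (1847 against 1906 CPM). Animal 7249 was above 7248 in 10 of 10 classes, and the order within each animal was nearly the same, with a Spearman's rho of 0.988 between them over the 10 classes as a description.

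Ordered by fold, the classes stood differently. At week 2 the summed level was 59.2-fold higher in AAV Müller nuclei, 30.2-fold in rods, 29.9-fold in astrocytes, 27.6-fold in horizontal cells, 18.0-fold in cones, 16.7-fold in bipolar cells, 14.7-fold in amacrine cells, 13.3-fold in retinal pigment epithelium, 10.5-fold in microglia, 8.69-fold in vascular nuclei and 8.05-fold in RGC. At week 4 rods (50.04-fold) and horizontal cells (49.99-fold) led, ahead of Müller glia (29.6-fold), cones (18.2-fold), bipolar cells (16.6-fold), amacrine cells (14.9-fold), astrocytes (13.6-fold), RGC (11.7-fold), microglia (10.2-fold) and vascular nuclei (9.19-fold). Microglia thus had the highest mean level and one of the smallest folds, with a vehicle level of 335 ± 89.5 CPM at week 4, against 19.3 ± 3.36 CPM in rods. Neither the retinal pigment epithelium at week 4 (5 nuclei in 7249) nor lymphocytes (3 and 5 nuclei in the vehicle retinas of week 4) had enough nuclei for a fold, and the lymphocytes of 7248 and 7249 stood at 2127 and 2819 CPM.

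**Figure D2:**
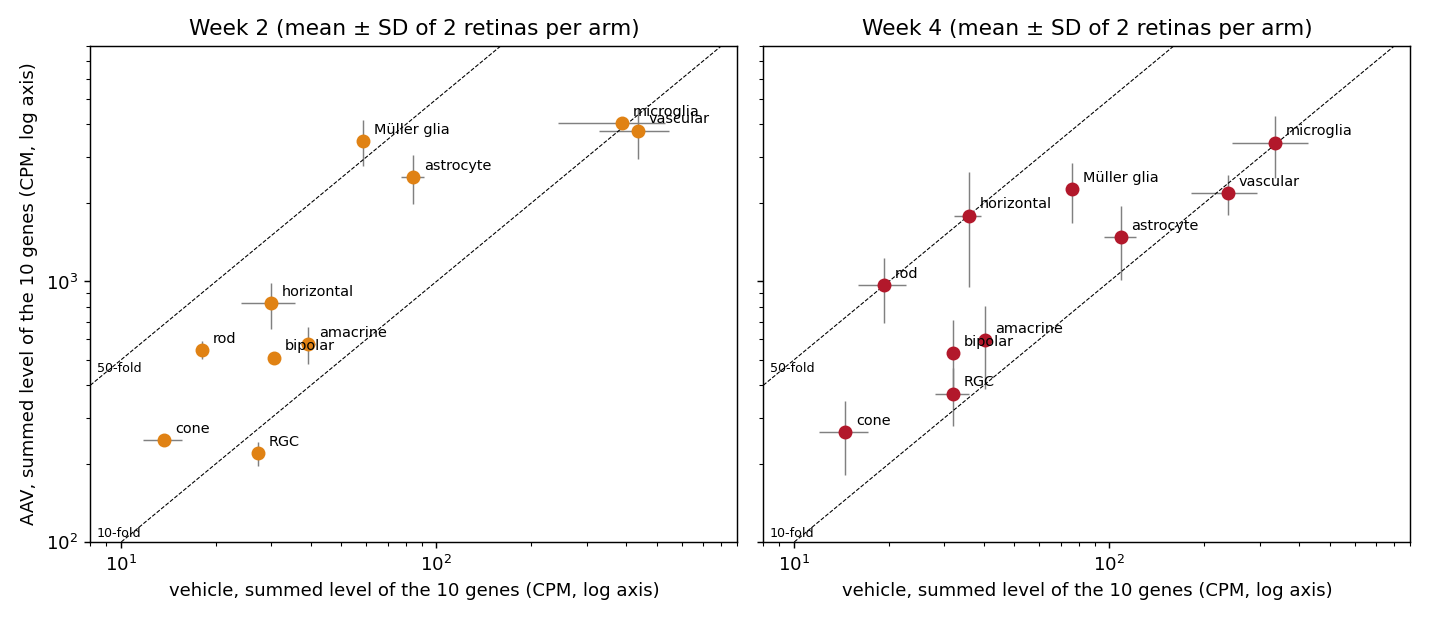
Summed level of the 10 genes in AAV retinas (vertical, CPM, log axis) against vehicle retinas (horizontal, CPM, log axis), 1 point per class with bars of 1 SD over 2 retinas per arm, 1 panel per week, and dashed lines at 10-fold and 50-fold. Microglia and vascular nuclei sit near the 10-fold line at the highest vehicle levels, Müller glia of week 2 above the 50-fold line, and rods and horizontal cells of week 4 on it.

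Counted gene by gene, all AAV values lay above all vehicle values in 98 of 100 pairs of a class and a gene at week 2, and in 99 of 100 at week 4. The exceptions were SAMD9 in horizontal cells at week 2 and TRIM25 in vascular nuclei at both weeks. The retinal pigment epithelium, measured at week 2 alone, is not among these pairs, and there RSAD2, SAMD9 and TRIM25 overlapped. These counts restate the choice of the genes. The share of all genes with at least 10 UMIs for which the AAV retinas lay above the vehicle retinas was itself large at week 2, at 36.5% in rods, 33.3% in cones, 35.8% in bipolar cells, 36.9% in amacrine cells, 31.2% in horizontal cells, 29.3% in RGC, 32.9% in Müller glia, 21.6% in astrocytes, 26.2% in microglia and 20.6% in vascular nuclei. At week 4 it was 24.1% in rods, 19.1% in cones, 22.6% in bipolar cells, 24.2% in amacrine cells, 28.1% in horizontal cells, 18.3% in RGC, 31.8% in Müller glia, 25.3% in astrocytes, 35.3% in microglia and 23% in vascular nuclei.

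Free RNA from other nuclei was gauged with marker genes. The Müller list is not specific to Müller glia, because most of its genes were higher in astrocytes or retinal pigment epithelium. The 6 Müller markers stood in AAV rods at 8.53 and 6.74% of their Müller level at week 2 and at 1.72 and 1.22% at week 4, whereas the 10 genes stood at 19.4, 13.04, 41.9 and 43.3% of theirs. In AAV cones the same markers were at 4.18, 3.84, 1.63 and 0.963% and the 10 genes at 8.49, 6.10, 11.13 and 12.2%. In RGC the markers were at 1.72 to 2.40% and the 10 genes at 5.97 to 16.5%. The 9 microglial markers stood at 0.800 to 2.35% of their microglial level across the 6 neuronal classes of the 4 AAV retinas. In all 24 neuronal sums of the AAV retinas the percent of the 10 genes was above that of either marker list. Single genes differed in this respect, as given below.

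BST2 (tetherin, ENSSSCG00000033453, chromosome 2, 60305306 to 60308295) holds budding enveloped virions at the cell surface. In rods it stood at 7.90 and 9.08 CPM in the eyes of 7221 against 0 and 0.0924 CPM in those of 7222, and at 3.41 and 2.46 CPM in 7248 and 7249 against 0.0715 and 0 CPM in 7250 and 7251. In Müller glia it was 73.1 and 101.8 CPM against 0.359 and 0.293 CPM, then 66.0 and 83.8 CPM against 0.169 and 0.264 CPM. In both classes it was close to absent without vector, and the groups did not overlap. The Müller folds were 268 at week 2 and 347 at week 4, the largest at either week among classes whose vehicle retinas held a BST2 UMI. Classes without one give lower bounds, which cannot be ranked against these. Microglia had the highest mean level, 144.1 and 104.7 CPM at week 2 (vascular nuclei of the right eye of 7221 stood at 118.2 CPM) and 127.1 and 135.3 CPM at week 4, with no UMI in the vehicle microglia of either week, so that BST2 was at least 11.6-fold and at least 8.64-fold higher there (against 3 counts over both vehicle retinas, the limit that a count of 0 allows). RGC held 0.920 and 4.81 CPM at week 2 and 8.13 and 8.07 CPM at week 4 against 0 in all 4 vehicle retinas.

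IFI6 (ENSSSCG00000034570, chromosome 6, 84852782 to 84858072) is a small membrane protein that restrains cell death and interferes with flavivirus replication at the endoplasmic reticulum. It had large folds in neurons. Rods carried 190.1 and 179 CPM against 0.870 and 0.862 CPM at week 2, and 160.3 and 298.3 CPM against 1.07 and 1.15 CPM at week 4. Horizontal cells, the interneurons beneath the photoreceptors, carried 129.4 and 104.1 CPM against 0.259 and 0.869 CPM, then 371.6 and 668.9 CPM against 0.473 and 0.765 CPM. These values give 213-fold and 206-fold in rods, 269-fold and 186-fold in bipolar cells, and 207-fold in horizontal cells at week 2. The horizontal ratio of week 4, 841, rests on 3 vehicle UMIs and has a 95% counting interval of 278.5 to 3954. Microglia had 439.1, 388.1, 274.3 and 522.2 CPM in the 4 AAV retinas, yet only 23.7-fold and 18.9-fold higher than vehicle. In the 2 horizontal sums of week 4, IFI6 stood at 136 and 128% of its microglial level, while in RGC it stood at 8.75 to 12.4%.

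**Figure D3:**
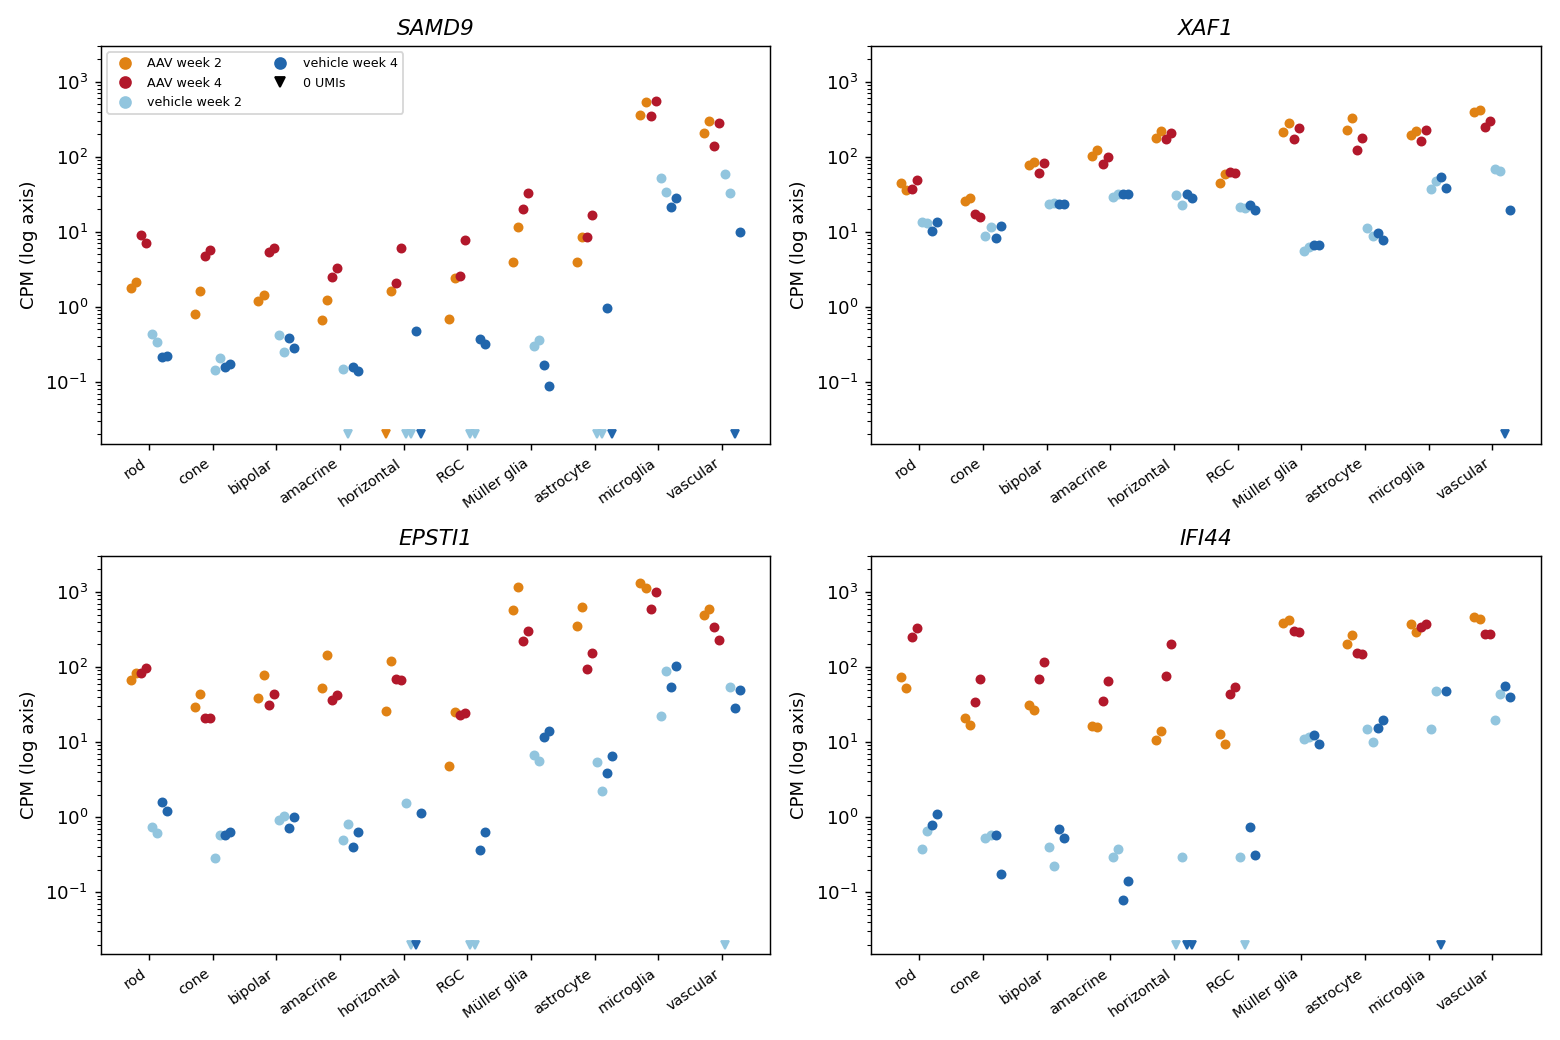
CPM (log axis) of SAMD9, XAF1, EPSTI1 and IFI44 in each class, 1 point per retina, coloured by treatment and week, with retinas at 0 UMIs drawn as triangles at the foot of the axis. SAMD9 is highest in microglia and vascular nuclei, XAF1 has the narrowest gap between AAV and vehicle in photoreceptors, and IFI44 in neurons is higher at week 4 than at week 2.

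RSAD2 (viperin, ENSSSCG00000008648) makes a chain-terminating analog of the nucleotide CTP, and CMPK2 (ENSSSCG00000008647) is a mitochondrial kinase that phosphorylates its precursors. The genes are neighbours on chromosome 3, RSAD2 at 128880853 to 128897809 on the minus strand and CMPK2 at 128903395 to 128917873 on the plus strand, head to head with 5585 bases and no protein-coding gene between them. In Müller glia RSAD2 stood at 129.8 and 274.5 CPM in the eyes of 7221 and 88.4 and 334.7 CPM in 7248 and 7249, against 0.0598, 0, 0 and 0.264 CPM in the 4 vehicle retinas. A single vehicle UMI at week 2 and 3 at week 4 underlie the ratios of 6767 (95% counting interval 1178 to 259400) and 1605 (413 to 5857). In horizontal cells RSAD2 was 75.7 and 169.7 CPM at week 2 and 78.8 and 460.9 CPM at week 4 with no vehicle UMI, at least 299-fold and at least 425.5-fold higher. The AAV retinas of a week differed by more than 2-fold here, with the right eye of 7221 and animal 7249 the higher ones. RGC stood at 2.30 and 3.61 CPM at week 2, at least 7.89-fold higher than vehicle. That was 0.780% of the microglial level in the left eye, where the microglial markers stood at 1.36%, and 1.31% of the Müller level in the right eye, where the Müller markers stood at 2.05%. By the other list it was slightly above the markers in each eye, at 1.77% of the Müller level against 1.72% in the left and at 1.72% of the microglial level against 1.53% in the right.

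Among classes with a vehicle UMI, CMPK2 had its largest folds in Müller glia. These glia carried 102.9 and 175.7 CPM against 0.359 and 0.366 CPM at week 2, and 55.1 and 91.9 CPM against 0.421 and 0.615 CPM at week 4, for folds of 384.5 and 142. Astrocytes of week 2 carried 76.4 and 148.7 CPM against 0 in both vehicle eyes, so their fold has no upper limit and cannot be ranked. Bipolar cells, which pass photoreceptor signals inward, carried 28.5 and 42.8 CPM against 2.37 and 2.52 CPM, then 16.0 and 24.3 CPM against 3.20 and 3.35 CPM. Bipolar cells, amacrine cells and RGC already held CMPK2 at 2.37 to 5.69 CPM without vector, and their folds were 14.6, 12.7 and 4.38 at week 2 and 6.15, 6.59 and 3.40 at week 4. The level was lower at week 4 than at week 2 without overlap in 7 of 10 classes and higher in none. No share over all genes is given for such counts between weeks, here or below. The week 2 values come from 2 eyes of 1 animal, so weeks and animals cannot be told apart. Per nucleus, AAV Müller glia held 0.283 and 0.627 CMPK2 UMIs at week 2 and 0.288 and 0.496 at week 4, which overlap. In vehicle amacrine cells RSAD2 had 3 UMIs at each week, where its neighbour CMPK2 had 134 and 100.

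IFI44 (ENSSSCG00000003763) and IFI44L (ENSSSCG00000027660) are paralogs of one family, reported to bind GTP and to dampen several RNA viruses, and lie on the minus strand of chromosome 6 at 134634679 to 134649857 and 134660230 to 134679212, 10372 bases apart with no protein-coding gene between. How reads fitting both copies were shared between them was not tested. In rods IFI44 was 74.1 and 52.3 CPM at week 2 and 252.8 and 333.9 CPM at week 4, against vehicle values of 0.381, 0.647, 0.787 and 1.10 CPM. In horizontal cells it was 10.7 and 14.2 CPM, then 76.0 and 205.3 CPM, with 0 and 0.290 CPM in the vehicle eyes of week 2 and no UMI in those of week 4. In Müller glia it was 383 and 418.8 CPM at week 2 and 305 and 294.8 CPM at week 4, against 9.49 to 12.3 CPM. IFI44 was higher at week 4 than at week 2 without overlap in 6 of 10 classes, rods and horizontal cells among them. Per UMI it was lower in 3, Müller glia among them. The share of all genes separating between weeks is not given here, and the weeks differ in animals. Per nucleus, Müller glia held 1.05 and 1.49 IFI44 UMIs at week 2 and 1.60 and 1.59 at week 4, so by this measure they were higher. Their median totals were 2386 and 3510 UMIs at week 2 and 5022 and 5309 UMIs at week 4. Rod folds were 123 and 311, horizontal ones a ratio of 86.0 on 1 vehicle UMI (16.4 to 3716) and at least 222, and Müller ones 35.3 and 27.5. The ratio of week 4 to week 2 was 4.64 in rods, 11.3 in horizontal cells and 0.748 in Müller glia.

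IFI44L was high in glia without vector as well as with it. Microglia carried 667 and 649.8 CPM against 134.8 and 151.1 CPM at week 2, and 600.7 and 701.8 CPM against 97.8 and 123.3 CPM at week 4. Müller glia carried 853.4 and 872 CPM against 23.8 and 21.3 CPM, then 571.3 and 769.2 CPM against 32.5 and 30.4 CPM. Horizontal cells carried 227.7 and 213.6 CPM against 0.259 and 0.579 CPM, then 318.2 and 572.6 CPM against 0.945 and 1.53 CPM. All 3 classes were high with vector, from very different vehicle levels, and the folds ran from 4.61 and 5.89 in microglia through 38.2 and 21.3 in Müller glia to 360 in horizontal cells at week 4. The horizontal ratio at week 2, 527, rests on 3 vehicle UMIs (183 to 2598).

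SAMD9 restricts poxviruses and acts on translation. It differed from the other 9 genes in its distribution. Microglia held 355.3 and 532 CPM in the eyes of 7221 and 348.6 and 551.3 CPM in 7248 and 7249, against 52.4, 34.3, 21.7 and 28.5 CPM in the vehicle retinas. Vascular nuclei held 205.4 and 295.5 CPM against 59.8 and 32.8 CPM, then 137.1 and 281.5 CPM against 0 and 9.90 CPM, from 13 to 71 nuclei per retina, and the lymphocytes of 7248 and 7249 held 289.2 and 364.8 CPM. Rods held 1.78 and 2.13 CPM against 0.435 and 0.339 CPM, then 8.95 and 7.11 CPM against 0.215 and 0.219 CPM. The gene was far higher in immune and vascular nuclei than in neurons. It stood in AAV neurons at 0 to 2.57% of its microglial level, at or below the percent of the microglial markers in 23 of 24 neuronal sums. The exception was the rods of 7248, at 2.57% where the markers stood at 1.91%. A level at or below the markers was seen for BST2 in 2 of 24, RSAD2 in 1, EPSTI1 in 1 and TRIM25 in 2, and for the other 5 genes in none. Against the Müller markers, it was seen in 2 of 24 for EPSTI1 and in 1 each for BST2, RSAD2, IFI44, SAMD9 and TRIM25, all in the eyes of 7221, and in none for IFI6, CMPK2, IFI44L and XAF1. These were the RGC of the left eye (BST2, EPSTI1 and TRIM25) or the right (RSAD2), the amacrine cells (IFI44) and cones (EPSTI1) of the right eye, and the horizontal cells of the left (SAMD9). Müller glia stood above the microglial markers at week 4, with SAMD9 at 20.2 and 32.8 CPM, 5.78 and 5.95% of the microglial level, where those markers were at 2.07 and 2.16%. Microglial folds were 10.2 and 17.9, and the Müller ratio of week 4 was 206.5 on 3 vehicle UMIs (62.1 to 891). Higher SAMD9 at week 4 than at week 2, without overlap in 8 of 10 classes, went with the larger number of microglia and lymphocytes at week 4, and their part in it was not tested. For this count too, the share of all genes is not given and the weeks differ in animals.

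EPSTI1 (ENSSSCG00000037572, chromosome 11, 24116991 to 24216219), an interferon-induced gene first described in epithelium meeting stroma, was highest in microglia by the mean of each week, although Müller glia stood slightly above them in the right eye of 7221. Microglia carried 1314 and 1143 CPM against 22.5 and 89.3 CPM at week 2 and 597.7 and 993.4 CPM against 54.3 and 104.3 CPM at week 4. Müller glia carried 579.5 and 1183 CPM against 6.63 and 5.57 CPM, then 220.2 and 303.6 CPM against 11.5 and 13.97 CPM. Amacrine cells, the lateral interneurons, carried 52.7 and 146.1 CPM against 0.490 and 0.800 CPM, then 36.5 and 43.0 CPM against 0.394 and 0.625 CPM. The groups did not overlap in any of these classes, and the level was lower at week 4 without overlap in 6 of 10 classes and higher in none. Again the count between weeks has no share of all genes beside it, and the weeks differ in animals. Folds were 22.0 and 10.0 in microglia, 144.5 and 20.5 in Müller glia and 154 and 78.1 in amacrine cells. In Müller glia the AAV level was lower and the vehicle level higher at week 4 than at week 2. Per nucleus, AAV Müller glia held 1.59 and 4.22 EPSTI1 UMIs at week 2 and 1.15 and 1.64 at week 4, which overlap.

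XAF1 (ENSSSCG00000056284, chromosome 12, 50644783 to 50659807), which antagonises the apoptosis inhibitor XIAP, had small folds in neurons. Rods carried 45.4 and 36.0 CPM against 13.5 and 13.1 CPM at week 2, and 37.0 and 49.7 CPM against 10.3 and 13.4 CPM at week 4. Cones, the daylight photoreceptors, carried 25.7 and 28.2 CPM against 8.78 and 11.6 CPM, then 17.3 and 15.8 CPM against 8.37 and 11.97 CPM. Müller glia carried 213.7 and 283.2 CPM against 5.50 and 6.37 CPM, then 175.1 and 241.7 CPM against 6.57 and 6.59 CPM. The vehicle level was thus lower in Müller glia than in the photoreceptors, while the AAV level was several times higher, and no class overlapped. Folds were 3.06 and 3.67 in rods, 2.65 and 1.63 in cones, 3.74 and 2.80 in amacrine cells, and 41.9 and 31.7 in Müller glia. XAF1 gave the lowest fold of the 10 in rods, cones, bipolar cells, amacrine cells and RGC at both weeks.

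TRIM25 (ENSSSCG00000017614, chromosome 12, 33184039 to 33212440) is a ubiquitin and ISG15 ligase that activates the RNA sensor RIG-I. In Müller glia it stood at 73.0 and 129.4 CPM against 8.01 and 7.18 CPM at week 2, and at 75.5 and 87.7 CPM against 11.3 and 7.47 CPM at week 4. In horizontal cells it stood at 3.77 and 12.9 CPM against 0.518 and 0 CPM, then 42.7 and 45.5 CPM against 1.42 and 0.765 CPM. In vascular nuclei it stood at 34.2 and 145.1 CPM against 69.7 and 98.3 CPM, then 41.1 and 76.8 CPM against 56.4 and 39.6 CPM. Glia and horizontal cells separated by treatment and vascular nuclei did not. Folds were 13.3 and 8.70 in Müller glia, 40.4 in horizontal cells at week 4, and 1.07 and 1.23 in vascular nuclei. In the retinal pigment epithelium of week 2 the ratio was 0.862. TRIM25 gave the lowest fold of the 10 in Müller glia, astrocytes and vascular nuclei at both weeks.

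The median fold over the 10 genes, with lower bounds entered at their bound, was 103.5 and 73.5 in rods at weeks 2 and 4 and 84.2 and 89.0 in horizontal cells, the latter with 3 lower bounds at each week. It was 9.85 and 11.5 in vascular nuclei and 10.7 and 9.80 in microglia, with 1 and 2 lower bounds in microglia. In Müller glia it was 90.2 and 57.7. RGC stood at 10.5 and 22.0, with 4 lower bounds at week 2 and 1 at week 4, and their 134 to 233 nuclei per retina limit how far a fold can be resolved. IFI6, IFI44 and IFI44L were higher in the right than in the left eye of 7221 in 2, 3 and 3 of 10 classes, whereas the other 7 genes were higher in the right eye in 9 or 10.

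After thinning each nucleus to 1000 UMIs, which left out 4.15% of the AAV nuclei of week 2, 1.81% of those of week 4, and 2.76 and 5.56% of the vehicle nuclei of these weeks, a UMI of any of the 10 genes was found in 91.7 and 95.7% of Müller nuclei in the eyes of 7221 and in 81.7 and 91.5% in 7248 and 7249, against 5.16 to 6.63% in vehicle retinas. In rods the share was 34.4, 27.7, 49.5 and 64.6%, against 1.58 to 2.16%. In cones it was 17.0, 13.8, 16.6 and 24.0%, against 0.884 to 1.51%. In astrocytes it was 82.6, 90, 63.8 and 77.9%, against 8.66 to 9.55%. Müller nuclei were thus mostly positive and photoreceptors in part, at this depth, with astrocytes of week 4 lower than those of week 2. Horizontal cells reached 68.5 and 79.9% at week 4, RGC 20, 25.3, 30.8 and 36.6%, and microglia 90.6 to 97.4% against 20 to 36.7% in vehicle. A UMI of at least 3 of the 10 genes was found in 39.3, 53, 18.3 and 36.3% of Müller nuclei and in 2.40, 2.19, 3.15 and 6.90% of rods. SAMD9 alone was found in 27.3 to 41.9% of AAV microglia and 22.7 and 29.9% of the lymphocytes of week 4, and in 0.142 to 0.791% of AAV rods. Losses to thinning differed by class. It kept 730 of 1120 and 686 of 1032 lymphocytes in 7248 and 7249, and 10816 of 12517 rods in the right eye of 7221.

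Detection of several genes in the same nucleus was compared with what independent detection gives within a class and retina. Pairs of genes seen in the same thinned nucleus were 1.96 and 2.66 times as frequent in the rods of 7221 and 1.29 and 1.17 times in those of 7248 and 7249. In cones the ratios were 3.12, 5.02, 1.78 and 1.75. In Müller glia they were 1.08, 1.07, 1.08 and 1.06, and in microglia 1.02 to 1.12. Bipolar cells stood at 1.31 to 1.95, amacrine cells at 1.32 to 1.75, horizontal cells at 1.04 to 1.43 and astrocytes at 1.07 to 1.16. RGC stood at 2.11, 0.984, 1.02 and 1.64, on 5 to 22 pairs seen. The cones of 7221 thus had the largest ratios, and the RGC of its right eye the only one under 1. Free RNA, which differs between lanes, and doublets, which were not removed, were not tested as parts of this.

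**Figure D4:**
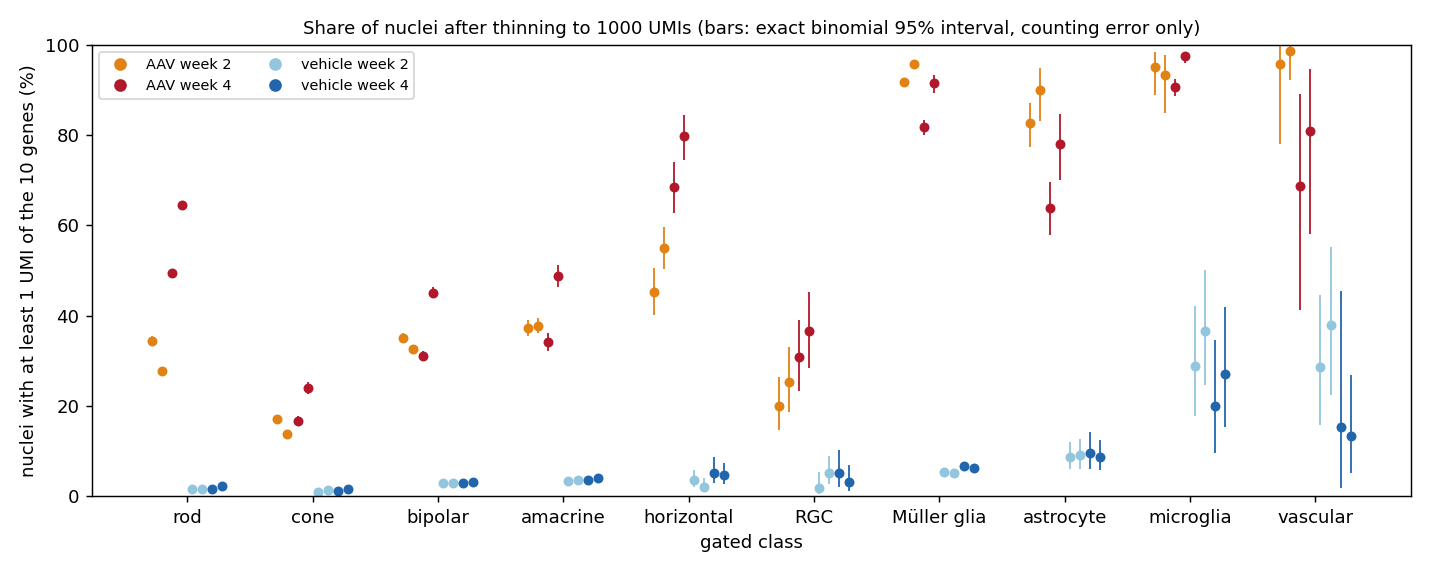
Percent of nuclei with a UMI of any of the 10 genes after thinning to 1000 UMIs, by class and retina, with 95% exact binomial intervals that cover counting error only. Müller nuclei lie between 81.7 and 95.7% in AAV retinas and between 5.16 and 6.63% in vehicle retinas, and cones between 13.8 and 24.0% against 0.884 to 1.51%.

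EGFP transcripts come from the vector, and the choice of the 10 genes made no use of them. An EGFP UMI was found in 2 of 155058 gated vehicle nuclei. At week 4 it was found in 4.77 and 4.42% of the rods of 7248 and 7249 (medians of 1931 and 2175 UMIs per nucleus) and in 3.75 and 2.33% of their lymphocytes (1314 and 1390 UMIs). As a level, EGFP stood in rods at 24.0 and 19.4 CPM, in cones at 14.2 and 13.01 CPM and in Müller glia at 17.03 and 13.2 CPM, against 25.7 and 13.2 CPM in lymphocytes, 36.8 and 42.3 CPM in bipolar cells and 123.3 and 108.7 CPM in RGC. Rods, cones and Müller glia thus stood near lymphocytes. A single UMI made up the EGFP of 89.5 to 92.6% of the positive rods over the 4 AAV retinas, and how many positive nuclei held free EGFP RNA was not tested. In the AAV retinas, nuclei with an EGFP UMI were compared with nuclei without one, in sums per animal with the animal as a block (edgeR's quasi-likelihood test, adjusted by Benjamini-Hochberg over all genes tested in the class, 3 animals of which 7221 contributed both eyes). Across the 7 classes with enough nuclei, 16 results for the 10 genes were higher in EGFP-positive nuclei at an adjusted p under 0.05 and 0 were lower. The 16 comprised 3 of 10 genes in rods, where 1.25% of all genes were called higher, 5 of 10 in cones (3.19%), and 5 and 3 of 10 in bipolar and amacrine cells (3.32 and 1.49%), with 0 of 9 in horizontal cells (0.0162%), 0 of 9 in RGC (0.477%) and 0 of 10 in Müller glia (0.1%). Genes called lower made up 0.177, 1.31, 4.09, 0.92, 0.00809, 0.749 and 0.0534% of those classes in the same order. In the 3 classes without a call, edgeR gave an unadjusted p under 0.05 for 1 gene in horizontal cells (RSAD2) and for none in RGC and Müller glia, and DESeq2 gave none in any of them. SAMD9 was not tested in horizontal cells and RGC, having too few counts.

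EPSTI1 was higher in all 4 of the first classes. In amacrine cells it stood at 157, 60.7 and 62.9 CPM in the EGFP-positive nuclei of 7221, 7248 and 7249 against 91.1, 33.3 and 39.6 CPM in the negative ones. All 3 animals had the higher value in positive nuclei, by a log2 difference of 0.77 ± 0.08 (standard error, adjusted p = 3.69e-05, edgeR). In bipolar cells the values were 84.8, 39.0 and 52.2 CPM against 54.6, 30.1 and 41.8 CPM, a log2 difference of 0.51 ± 0.07 (adjusted p = 6.3e-05, edgeR), again higher in 3 of 3. In cones the difference was 0.79 ± 0.13 (adjusted p = 1.32e-05, edgeR), higher in 3 of 3 animals. In rods it was 0.33 ± 0.08 (adjusted p = 0.0178, edgeR), higher in 2 of 3, with 82.6 against 83.3 CPM in 7248.

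RSAD2 was higher in the same classes, by a log2 difference of 0.97 ± 0.15 in amacrine cells (adjusted p = 0.000895, edgeR), 0.72 ± 0.21 in cones (adjusted p = 0.037, edgeR), 0.58 ± 0.14 in rods (adjusted p = 0.0205, edgeR) and 0.56 ± 0.10 in bipolar cells (adjusted p = 0.000708, edgeR). Amacrine values were 35.3, 6.82 and 37.8 CPM in positive against 15.6, 7.54 and 20.0 CPM in negative nuclei, so that 7248 went the other way, on 11 UMIs in its positive nuclei. The 7221 values sum both eyes, here and for the other genes, so they also carry the difference between its eyes. EGFP was found in 9.62% of its left and 23.4% of its right amacrine nuclei, where RSAD2 stood at 9.015 and 28.4 CPM. With the retina as a block, all 16 calls remained. XAF1 was higher in cones by 0.72 ± 0.14, in rods by 0.32 ± 0.08 and in bipolar cells by 0.23 ± 0.07, CMPK2 in cones by 0.87 ± 0.23 and in bipolar cells by 0.38 ± 0.09, TRIM25 in amacrine cells by 0.79 ± 0.14 and in bipolar cells by 0.52 ± 0.14, and IFI44L in cones by 0.59 ± 0.10. TRIM25 in amacrine cells was 1.75, 1.71 and 1.77 times as high in the positive nuclei of the 3 animals. BST2, IFI6, IFI44 and SAMD9 passed in no class.

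These differences were small beside the folds over vehicle: EPSTI1 in amacrine cells was 1.59 to 1.82 times as high with EGFP as without, and EGFP-negative amacrine cells stood at 33.3 to 91.1 CPM where vehicle amacrine cells stood at 0.394 to 0.800 CPM. The summed level of the 10 genes in positive over negative nuclei was 1.61, 1.31 and 1.22 in 7221, 7248 and 7249 for cones, 1.29, 1.24 and 1.17 for amacrine cells, 1.23, 1.01 and 0.957 for bipolar cells, 1.20, 0.997 and 0.854 for RGC, and 1.09, 1.01 and 0.986 for Müller glia. Müller glia showed log2 differences of -0.04 to 0.20. Differences between classes were not tested. An EGFP-negative nucleus may hold vector whose transcripts were not captured. In RGC of 7221 the positive nuclei, 231, outnumbered the 109 negative ones.

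**Figure D5:**
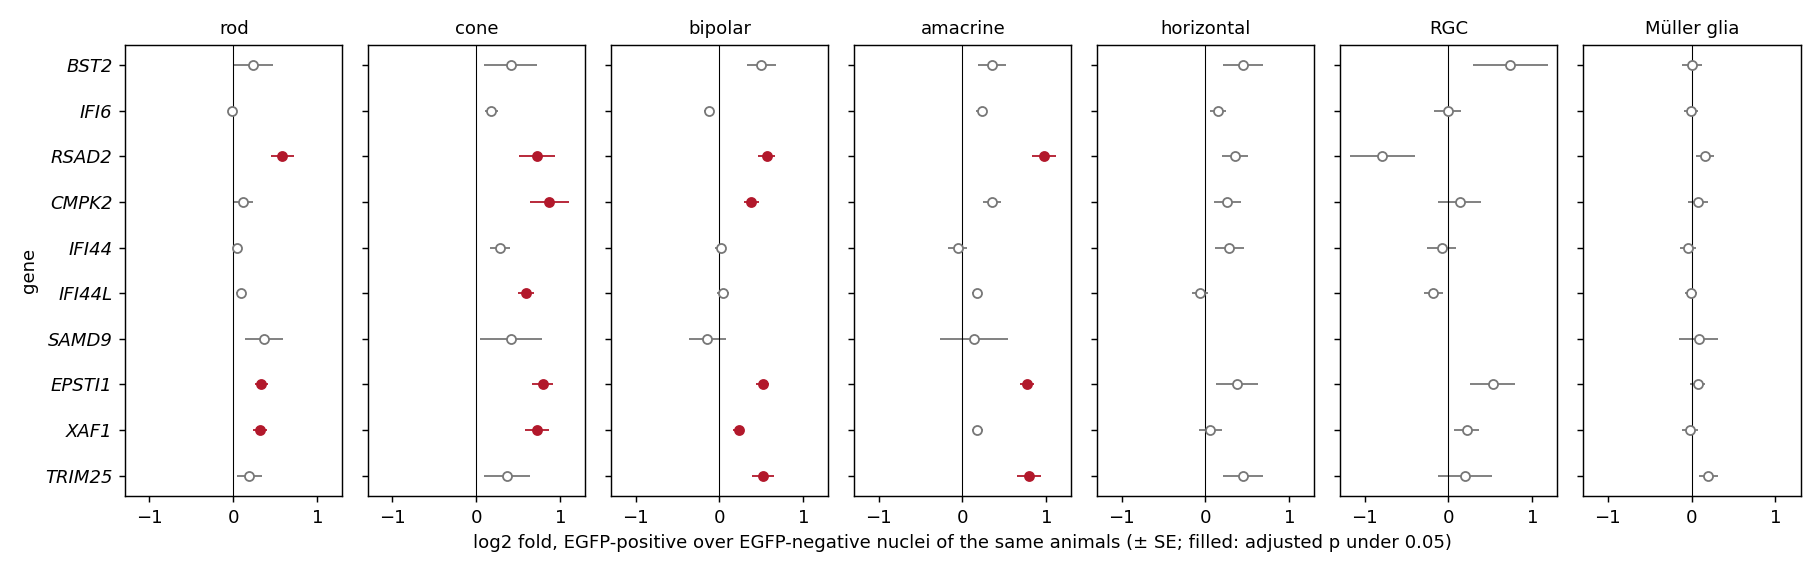
Log2 difference (horizontal axis) of each of the 10 genes between EGFP-positive and EGFP-negative nuclei within AAV retinas, by class, with standard errors from edgeR over 3 animals, filled where the adjusted p was under 0.05. The filled points all lie above 0 and belong to rods, cones, bipolar and amacrine cells.

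EGFP-positive nuclei were also deeper in each class and animal tested except the Müller glia of 7249 (medians of 5149.5 UMIs in positive and 5323 UMIs in negative nuclei), with median totals of 4897, 4278 and 4849 UMIs in the positive bipolar nuclei of 7221, 7248 and 7249 against 3427, 3129 and 3552 UMIs in the negative ones. With negatives matched in depth, 4 of the 16 calls remained, RSAD2 and XAF1 in bipolar cells and EPSTI1 and RSAD2 in amacrine cells, and the rods gave no call for any gene. All 16 stayed higher in sign. Without animal 7221, 3 remained (EPSTI1 in bipolar and amacrine cells, TRIM25 in amacrine cells), and RSAD2 was then lower in positive RGC by 1.29 on the log2 scale (adjusted p = 0.0487, edgeR), where all 3 animals together gave -0.79 ± 0.39 (adjusted p = 0.585, edgeR). Without animal 7248, 1 of the 10 genes was instead called higher in positive RGC (adjusted p = 0.0163, edgeR). DESeq2 kept 8 of the 16, and leaving out the animal as a block kept none. Müller markers moved with EGFP in the cones of 7221, at 1.39 times their level in negative nuclei, and in its rods, at 1.31 times, while in bipolar and amacrine cells they stood at 0.917 to 1.16 times over the 3 animals. Microglial markers stood in positive cones at 1.19, 1.14 and 1.15 times their level in negative ones, and in rods at 1.13, 0.920 and 1.08 times. The part of either marker list in the cone and rod results was not tested.

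The wider interferon response was read from 55 other interferon-stimulated genes, 47 of them in the files, at week 4 (edgeR's quasi-likelihood test, 2 animals per arm, adjusted over all genes). In rods 42 of 47 tested were higher in AAV retinas, where 6.17% of all genes were, and among the other neurons 43 of 47 in amacrine cells (2.11%), 42 of 47 in bipolar cells (2.65%), 41 of 46 in horizontal cells (2.4%, with 0 genes called there once 7250 or 7251 was left out), 34 of 46 in cones (1.6%) and 40 of 45 in RGC (2.37%). The counts were 47 of 47 in Müller glia (11.8%), 41 of 44 in astrocytes (7.33%), 30 of 47 in microglia (5.98%) and 12 of 16 in vascular nuclei (2.33%), with none lower in any class. In simulated data with a log2 change of 2, this test recovered 36.5% of changed genes in microglia and 92.5% in bipolar cells. The counts are therefore not comparable between classes. The same AAV and vehicle retinas were used in choosing the 10 genes, and the lists were chosen with earlier results of these data known. These counts are therefore a description and no independent support for the 10 genes. DDX60 (a helicase that aids RNA sensing), MX2 (a dynamin-like GTPase) and IFIH1 (the RNA sensor MDA5) were higher in 10 of 10 classes, by a median log2 fold change of 8.62, 8.45 and 5.49. Of the 9 receptor subunits and kinases listed, 1 to 4 were higher in each class but the vascular nuclei (0 of 3 tested). IFNAR1, IFNAR2 and IL10RB were each higher in 6 classes and none was lower, and JAK1, TYK2 and IFNGR1 passed in none. Of 5 feedback genes (USP18, ISG15, SOCS1, SOCS3 and PIAS1), 3 of 4 tested were higher in rods, bipolar cells and Müller glia, 2 of 3 in cones, amacrine cells, horizontal cells and RGC, 1 of 3 in astrocytes, 1 of 4 in microglia and 0 of 1 in vascular nuclei, and none was lower in any class. USP18 and ISG15 are also among the 47 genes counted above, so the lists overlap. The inhibitor SOCS3 was higher in 2 of the 2 classes where it could be tested and SOCS1 in 1 of 2. Of the 8 interferon genes listed, 5 were in the files. IFNE, the only one of them with enough counts to test, was lower in rods by 2.33 and in astrocytes by 1.19 on the log2 scale and passed in none of the other 5 classes tested.

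In the EGFP comparison, 22 of the 47 other interferon-stimulated genes tested were higher in positive amacrine cells (1.49% of all genes were), 16 of 47 in bipolar cells (3.32%), 14 of 46 in cones (3.19%), 1 of 47 in rods (1.25%) and 1 of 45 in RGC (0.477%), and none in horizontal cells (0.0162%) and Müller glia (0.1%), with none lower. Without the animal as a block no gene was called in any class by edgeR, with 125 to 1028 genes at an unadjusted p under 0.05. With negatives matched in depth the genes called in either direction went from 455 to 131 in amacrine cells, from 781 to 19 in cones, from 290 to 0 in rods and from 144 to 17 in RGC, and moved by less in bipolar cells. HERC5, the ligase that attaches ISG15, was higher in 4 classes, and ZNFX1 (an RNA helicase) and OAS2 (which makes the activator of RNase L) in 3 each, as were RIGI, HERC6, IFIH1 and TRIM21.

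Over 80 sums of a class in a retina, the genes whose level followed the summed level of the 10 most closely by Spearman's rho, among 13018 genes, were PARP12 (0.975), MX1 (0.975), HERC6 (0.971), HERC5 (0.958) and LGALS3BP (0.954), leaving out the 10 themselves. Of the 10, IFI44L came highest at 0.965 and SAMD9 lowest at 0.782, behind 111 genes. The sums share retinas, depth and the treatment contrast, so these values describe likeness over classes and groups and carry no p.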

How the data were processed

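Gene by barcode count matrices of 8 retinas (4 lanes each) were used as deposited: whole UMI counts that the authors had made with Cell Ranger 8.0.0 against Sscrofa11.1, per the labels' processing notes, with no further normalization and a minimum of 500 UMIs per barcode. Depth per retina is given with the results, and EGFP was counted as an extra feature. How reads fitting more than 1 gene were handled is not given in the sources used here.

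From these counts, barcodes whose mitochondrial share was high for their number of genes were removed by a mixture model (posterior of at least 0.75, 6.95 to 12.9% of barcodes per retina, 13 mitochondrial genes). Nuclei were assigned to 12 classes by a Poisson model of 85 marker genes, at a posterior of at least 0.95 and with at least 2 distinct markers, or 3 for vascular and pigment epithelial nuclei. That assignment rule was set after the data had been seen. Doublets were not removed. UMIs were then summed per class and retina, and a class needed 10 nuclei in each retina for a fold. The members and gene lists were chosen with earlier results of these data known. The genes named in the text are the 10 members, the 3 other interferon-stimulated genes passing in most classes in each test (ties settled by the smallest median adjusted p for EGFP and by the largest median log2 fold change at week 4), and the 5 genes most like the members. RIGI, HERC6 and TRIM21 (tied for EGFP), COL9A1, IFNE, the SOCS genes and the receptor genes were named after their values were seen.

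Tests across all genes used edgeR 4.0.16 in R 4.3.3 (filterByExpr, TMM, glmQLFit and glmQLFTest, Benjamini-Hochberg) on the sums, AAV against vehicle at week 4 with 2 animals per arm, and EGFP-positive against EGFP-negative nuclei with the animal as a block, because both sums come from the same animal. At least 20 nuclei were needed on each side. One promoter stretch is not reported here. Week 2 has no test, and nor do the 10 genes for AAV against vehicle. DESeq2 1.42.0, no filter, no block, a stricter gate and other settings were tried as alternatives. A count of 0 was taken to allow 3 counts. Poisson and binomial intervals are exact, at 95%, and cover counting error only. The procedures were tested on simulated data. For AAV against vehicle at week 4, p-values set the difference against the spread between animals within an arm. In the EGFP comparison they set it against how the difference between positive and negative sums varied over the animals.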

Additional observations from a re-analysis of the deposited data

Results flagged for a closer look

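Between EGFP-positive and EGFP-negative nuclei, 3 of the genes moved one way in every animal of one class and the other way in every animal of another. IFI6 was lower in positive bipolar nuclei in 3 of 3 animals, with a mean ratio of 0.898, and higher in 3 of 3 in amacrine cells, cones and horizontal cells. Rod markers stood in positive bipolar nuclei at 0.741, 0.925 and 0.968 times their level in negative ones in 7221, 7248 and 7249. In amacrine cells, where IFI6 was higher, they stood at 0.940, 0.935 and 0.769 times. IFI44 was lower in positive RGC, with a mean ratio of 0.955, and higher in cones, horizontal cells and rods. In positive RGC of 7221, 7248 and 7249, rod markers stood at 0.605, 0.507 and 0.617 times their level in negative RGC. The part of rod RNA in the IFI6 and IFI44 results was not tested. IFI44L was lower in positive horizontal cells, with a mean ratio of 0.970, and higher in amacrine cells and cones. The difference between the classes was not tested in any of these, and of the single results only IFI44L in cones passed its own test.

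Nuclei that the marker genes assigned to no class, used in no comparison above, also held the 10 genes. Their summed level was 760.4 and 1150.0 CPM in the eyes of 7221 and 737.3 and 1128.0 CPM in 7248 and 7249, against 37.6 to 39.7 CPM in the 4 vehicle retinas.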

How the results depend on the processing

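AAV retinas lay above vehicle retinas in 98 and 99 of 100 pairs of class and gene, and in 97 to 100 under the alternatives that kept all 10 classes. A stricter gate left 9 classes, with 88 and 89 of 90 pairs. Single folds were recomputed under each alternative, leaving out lower bounds of 1 or less, which give no direction. Of the 1972 left, 1969 stayed on the same side of 1. The other 3 were TRIM25 in vascular nuclei, whose fold ran from 0.408 to 1.73 at week 2 with 1 eye left out (0.408 without the right eye of 7221, 0.912 without the left eye of 7222) and from 0.857 (without 7249) to 1.60 at week 4. The median fold over pairs was 34.7 at week 2 and 29.6 at week 4. It moved to 31.6 at week 2 with a stricter gate and to 40.3 and 47.8 per nucleus in place of per UMI, and ran from 23.7 to 38.0 and from 20.7 to 34.6 when 1 retina was left out. The median summed level of week 2 (699.8 CPM) was 567.6 with a stricter gate. The median share of positive nuclei (43.8 and 64.0%) was 92.4 and 97.3% without thinning and 27.1 and 41.8% at 500 UMIs.

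Genes higher at week 4 numbered 405 in amacrine cells, 298 in horizontal cells, 323 in RGC, 2141 in Müller glia, 851 in astrocytes, 629 in microglia and 48 in vascular nuclei. Without the filter on low counts there were 908, 73, 531, 1356, 1059 and 74 in amacrine cells, horizontal cells, RGC, astrocytes, microglia and vascular nuclei. DESeq2 gave 170, 1401, 522 and 12 in RGC, Müller glia, astrocytes and vascular nuclei. With 1 animal left out (the lone sample taken to vary like the others) counts ran from 302 to 1631 in rods (1329 with all), 198 to 460 in cones (295), 296 to 822 in bipolar cells (563), 323 to 525 in amacrine cells, 0 to 471 in horizontal cells, 282 to 437 in RGC, 1133 to 1706 in Müller glia, 432 to 811 in astrocytes, 406 to 541 in microglia and 17 to 65 in vascular nuclei. The 0 in horizontal cells came without 7250 and without 7251. No paired analysis was possible because the AAV and vehicle retinas of this week 4 comparison come from different animals.

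EGFP-positive and EGFP-negative nuclei differed in 290 genes in rods, 781 in cones, 1547 in bipolar cells, 455 in amacrine cells, 3 in horizontal cells, 144 in RGC and 23 in Müller glia. Without the animal as a block there were 0 in every class by edgeR (125 to 1028 at an unadjusted p under 0.05). DESeq2 gave 145, 234, 750, 158, 1, 21 and 5. Negatives matched in depth gave 0, 19, 131, 1, 17 and 0 in rods, cones, amacrine cells, horizontal cells, RGC and Müller glia. Without the filter there were 532, 702, 28 and 78 in rods, amacrine cells, horizontal cells and Müller glia. At least 2 EGFP UMIs gave 119 in rods, and could not be run in cones, horizontal cells and Müller glia. A stricter gate gave 181, 6 and 90 in amacrine cells, horizontal cells and RGC, and RSAD2 in RGC turned to a log2 difference of 0.23 (adjusted p = 0.963, edgeR). Chosen after seeing the data, the retina as a block gave 1, 63 and 52 in horizontal cells, RGC and Müller glia, and leaving out the right eye of 7221 gave 129, 264, 0, 71 and 9 in rods, amacrine cells, horizontal cells, RGC and Müller glia. With 1 animal left out counts ran from 80 to 394, 256 to 726, 1226 to 1674, 270 to 621, 0 to 23, 104 to 184 and 24 to 64. The cause of these moves was not tested.

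Of the 16 results for the 10 genes, 0 passed without the replicate block, 8 with DESeq2, 15 without the filter, 3 without 7221, 16 without 7248, 13 without 7249, 7 of 11 testable with 2 EGFP UMIs, 4 with matched depth, 12 with a stricter gate, 16 with the retina as block and 8 without the right eye of 7221. All stayed higher in sign wherever tested.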
